A study of Mus musculus with 8 samples.

Results

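The genes described here are 10 genes of the intermediate cells of the stria vascularis and of pigment cells: the potassium channel genes *Kcnj10* and *Kcnj13*, the pigment genes *Tyr*, *Tyrp1*, *Dct*, *Pmel* and *Mlana*, and the regulator and receptor genes *Mitf*, *Kit* and *Ednrb*. They were chosen by symbol, and all 10 were found among the 47502 distinct symbols of the count tables. RNA seq was done on cochleae, the hearing part of the inner ear, of 4 WT mice (mice 4, 5, 6 and 8) and 4 heterozygous *Opa1*+/- mice (mice Het_2, Het_7, Het_484 and Het_491 in the labels). *Opa1* encodes a GTPase of the inner mitochondrial membrane, and the *Opa1*+/- mice carried 1 knock-in allele with the human delTTAG deletion. Both groups had a mixed C57BL/6J and 129Sv/Pas background, were untreated, and were 21 days old by the methods of the study. The controls were littermates, homozygous mutants are not viable, and whole cochleae were used, so each value averages over all cochlear cell types. The comparison asked whether the transcripts of intermediate cells differ in amount between the genotypes.

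Intermediate cells are pigment cells of neural crest origin that lie between the marginal and the basal cells of the stria vascularis. Their inward rectifier potassium channel, the product of *Kcnj10*, generates most of the endocochlear potential, the positive voltage of the endolymph that drives current into the hair cells. Like skin melanocytes they depend on the transcription factor MITF, on the receptor KIT and its ligand, and on the endothelin receptor EDNRB, and mice without these cells are deaf. Tyrosinase, TYRP1 and DCT are the enzymes of melanin synthesis, PMEL forms the fibrils on which melanin is laid down, and MLANA is a melanosomal protein that takes part in the maturation of PMEL.

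MITF binds DNA at E-box motifs, of which the longer form TCATGTG is known from the promoters of melanin enzymes. Promoter sequences of RefSeq (GRCm38.p6) were held for 8 of the 10 genes, those other than *Pmel* and *Mlana*. In the 250 bases before the start, TCATGTG was found on either strand in 4 of the 8 genes, *Tyr*, *Tyrp1*, *Dct* and *Kcnj13*, and in 3.72% of the 27025 genes of the whole table. Because TCATGTG is known from promoters of melanin enzymes, its presence in *Tyr*, *Tyrp1* and *Dct* is not an independent result. The stretches that hold TCATGTG are printed 5′ to 3′ on the strand of the gene, with the motif in capitals. CACATGA is TCATGTG on the other strand.
Tyr: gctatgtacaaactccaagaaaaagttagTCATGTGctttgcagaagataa
Tyrp1: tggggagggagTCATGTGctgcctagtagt
Dct: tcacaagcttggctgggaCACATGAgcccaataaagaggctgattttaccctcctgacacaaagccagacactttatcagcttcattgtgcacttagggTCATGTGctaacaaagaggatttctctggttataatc
Kcnj13: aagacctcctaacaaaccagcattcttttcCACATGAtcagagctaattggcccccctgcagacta

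The *Tyr* stretch lies at chr7:87493513-87493563 on the minus strand, directly before the annotated gene. For *Tyrp1* the stretch is at chr4:80834155-80834184 on the plus strand, 29 to 58 bases before the RefSeq start and within the first exon of a longer GENCODE transcript. The *Dct* stretch, at chr14:118052361-118052496 on the minus strand, holds the motif in both orientations, with CATGTG starting at -150 on the strand of the gene and its reverse complement at -232. The *Kcnj13* stretch lies at chr1:87394806-87394871 on the minus strand, with the motif at -112 on the opposite strand. The shorter CATGTG, which every TCATGTG contains, was found in the same 4 genes and in 13.8% of all genes of the table, and CACGTG in none of the 8 and in 6.86% of all. A match of letters is a description and does not show that a factor binds there.

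*Opa1* itself, as a check of the genotype labels, was at 120 ± 6.09 CPM (read counts scaled to the same library size, SD, n = 4) in WT and 65.6 ± 4.42 in *Opa1*+/- mice, and each *Opa1*+/- mouse was below each WT mouse. Counts on named genes ranged from 15978051 to 20828030 per mouse. All 10 genes of a fixed list of inner ear genes were detected. WT mouse 4 stood apart in the sum of 10 neutrophil and bone marrow genes, at 1429 CPM. The other WT mice had 435 to 532 CPM and *Opa1*+/- mice 458 to 1183 CPM. WT mouse 4 also had the highest erythroid sum of the WT mice, 21454 against 7746 to 12321 CPM. In *Opa1*+/- mice the erythroid sum was 15062 to 25054 CPM.

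No difference between the genotypes passed the test for any of the 10 genes. By the quasi-likelihood test of edgeR, with p-values adjusted after Benjamini and Hochberg over 19366 genes, 0 of the 10 had an adjusted p under 0.05, and their adjusted p-values lay between 0.758 and 0.998; of all genes tested, 0.0258% passed. An unadjusted p under 0.05 was found for 0 of the 10, against 6.72% of all genes. With DESeq2's Wald test the corresponding counts were also 0 and 0. In none of the 10 were all *Opa1*+/- mice on one side of all WT mice, a separation seen in 4.31% of all genes in either direction and in 2.33% with *Opa1*+/- mice lower. The estimated log2 fold change was negative for 8 genes and positive for *Dct* and *Tyrp1*, where 49.9% of all genes were negative. With limma voom 6 were negative, since *Kcnj10* (0.03), *Tyr* (0.01) and *Mlana* (0.03) turned positive and *Tyrp1* (-0.14) turned negative. The median over the 10 was -0.07 on the log2 scale, beside 0.0004 over all genes tested. In RNA from whole cochleae, fewer intermediate cells and less RNA per cell cannot be told apart.

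**Figure D1:**
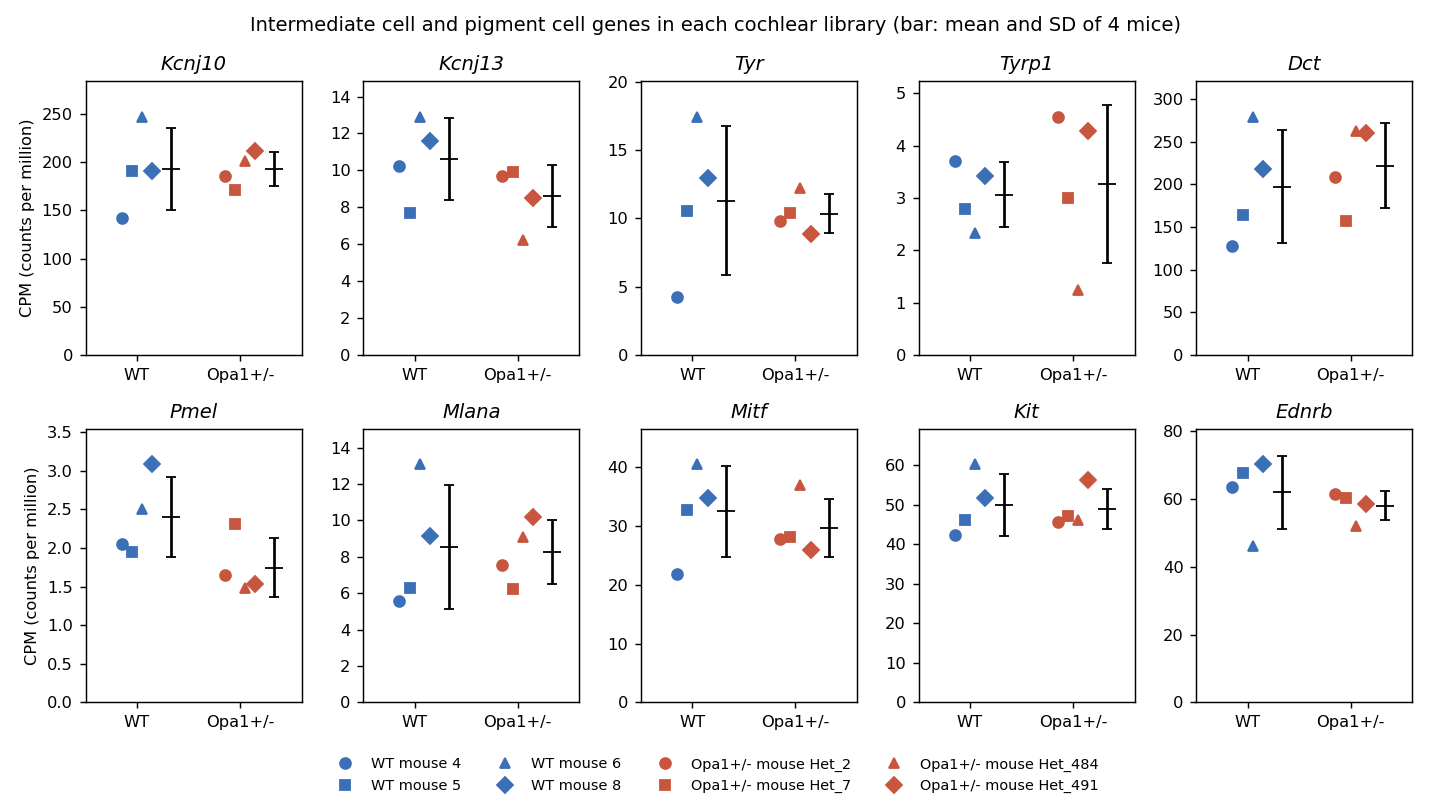
Level of each of the 10 genes in each cochlear library, in CPM on an axis that starts at 0, with WT mice in blue, Opa1+/- mice in red and the mean and SD of 4 mice beside each group. The groups overlap in every panel, and WT mouse 6 is the highest of 8 mice in 7 panels while WT mouse 4 is the lowest in 6.

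*Kcnj10*, the potassium channel of intermediate cells that cochlear and other glia also express, lies on chr1:172341210-172374085 (GRCm38, plus strand). It was measured at 142, 191, 247 and 191 CPM in WT mice 4, 5, 6 and 8, and at 186, 171, 202 and 212 CPM in *Opa1*+/- mice Het_2, Het_7, Het_484 and Het_491. The extremes on both sides were WT mice, and the 4 *Opa1*+/- values fell between them. The means were 193 ± 43.0 and 193 ± 17.8 CPM (SD, n = 4 each), with a log2 fold change of -0.002 (SE 0.148) and a 95% interval from -0.33 to 0.33 (edgeR adjusted p = 0.998).

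*Kcnj13*, an inward rectifier gene best known from the choroid plexus and the retinal pigment epithelium, lies on chr1:87386363-87394729 (minus strand). WT mice had 10.2, 7.71, 12.9 and 11.6 CPM and *Opa1*+/- mice 9.70, 9.93, 6.25 and 8.49 CPM in the same order of animals. The lowest value was in *Opa1*+/- mouse Het_484 and the highest in WT mouse 6, but WT mouse 5 was below 3 of the 4 *Opa1*+/- mice. Its log2 fold change was -0.30 (SE 0.189, 95% interval -0.72 to 0.12, edgeR adjusted p = 0.785). Of its 1270 exon bases, 623 overlap exons of *Gigyf2*, which is read from the other strand, and since the use of strand in counting is not given in the sources used here its counts may include *Gigyf2* reads. *Gigyf2* ranged from 56.1 to 60.0 CPM in WT and from 51.2 to 59.0 CPM in *Opa1*+/- mice. The encoded proteins of 379 and 360 residues of *Kcnj10* and *Kcnj13* were 44.2% identical over aligned positions.

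*Dct* had the highest level of the pigment genes per exon length. It encodes dopachrome tautomerase, an enzyme late in melanin synthesis that also marks the earliest melanoblasts, and lies on chr14:118012790-118052244 (minus strand). In WT mice it was at 128, 164, 279 and 218 CPM, and in *Opa1*+/- mice at 209, 157, 262 and 260.0 CPM. *Opa1*+/- mice Het_484 and Het_491 were near WT mouse 6, the highest, and *Opa1*+/- mouse Het_7 was below 3 of the WT mice. The means, 197 ± 66.2 and 222 ± 50.0 CPM, differed by 0.17 on the log2 scale (SE 0.242, 95% interval -0.37 to 0.71, edgeR adjusted p = 0.913).

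*Tyr*, on chr7:87424771-87493512 (minus strand), encodes tyrosinase, the rate-limiting enzyme of melanin synthesis. Its values were 4.28, 10.5, 17.4 and 13.0 CPM in WT mice and 9.82, 10.4, 12.3 and 8.87 CPM in *Opa1*+/- mice. The spread of *Tyr* was almost wholly among WT mice, whose highest value was 4.08 times the lowest, while the *Opa1*+/- mice differed by at most 1.38 times. The log2 fold change was -0.13 (SE 0.333, 95% interval -0.88 to 0.62, edgeR adjusted p = 0.955). The wide interval does not exclude a change of the size seen for *Opa1*, -0.87.

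*Tyrp1*, on chr4:80834123-80851719 (plus strand), encodes a relative of tyrosinase that acts in the synthesis of black melanin. It was at 3.71, 2.78, 2.33 and 3.43 CPM in WT mice and at 4.55, 3.01, 1.24 and 4.28 CPM in *Opa1*+/- mice. Here the *Opa1*+/- group held both the highest and the lowest of 8 values. The lowest, in *Opa1*+/- mouse Het_484, rests on 20 reads, with a Poisson 95% interval from 12.2 to 30.9 reads that covers counting error only, not the spread between mice. Between genotypes the log2 fold change was 0.09 (SE 0.346, 95% interval -0.68 to 0.87, edgeR adjusted p = 0.968). The 3 enzymes are distant relatives, with 43.2% identity between *Tyr* and *Tyrp1*, 43.4% between *Tyr* and *Dct* and 49.2% between *Tyrp1* and *Dct* in the encoded proteins.

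*Pmel*, on chr10:128704195-128720238 (plus strand), encodes the fibril protein of the melanosome and had the lowest level of the 10 per exon length. It was measured at 2.05, 1.95, 2.51 and 3.08 CPM in WT mice and 1.66, 2.31, 1.49 and 1.53 CPM in *Opa1*+/- mice. *Opa1*+/- mice Het_2, Het_484 and Het_491 were below all WT mice, but *Opa1*+/- mouse Het_7 was above WT mice 4 and 5. Its log2 fold change, -0.45 (SE 0.222, 95% interval -0.95 to 0.046), was the most negative of the 10, with the lowest unadjusted p, 0.0704, and an edgeR adjusted p of 0.758. These levels rest on 24 to 63 reads per mouse, for which counting alone gives a coefficient of variation of 16.2%, beside 21.5% among WT and 21.8% among *Opa1*+/- mice. Short stretches of its exons overlap *Dgka* (105 bases) and *Cdk2* (34 bases) on the other strand. Since the use of strand in counting is not given, the *Pmel* counts may include reads of these genes. *Dgka* ranged from 34.8 to 45.0 CPM in WT and from 38.7 to 41.0 CPM in *Opa1*+/- mice. *Cdk2* ranged from 8.54 to 11.1 CPM in WT and from 6.70 to 9.32 CPM in *Opa1*+/- mice.

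*Mlana*, on chr19:29697824-29708634 (plus strand), was at 5.59, 6.30, 13.1 and 9.16 CPM in WT mice and at 7.57, 6.22, 9.10 and 10.2 CPM in *Opa1*+/- mice. WT mouse 6 was again the highest and WT mouse 4 the lowest. Its log2 fold change was -0.05 (SE 0.269, 95% interval -0.65 to 0.56, edgeR adjusted p = 0.979).

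Among the regulators, *Mitf*, which encodes the master transcription factor of the melanocyte lineage and lies on chr6:97807052-98021349 (plus strand), had 21.9, 32.7, 40.4 and 34.6 CPM in WT mice and 27.8, 28.0, 36.9 and 25.8 CPM in *Opa1*+/- mice. The order of the mice was nearly that of *Tyr*, with WT mouse 4 lowest and WT mouse 6 highest. The log2 fold change was -0.13 (SE 0.177, 95% interval -0.53 to 0.27, edgeR adjusted p = 0.910).

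*Kit*, on chr5:75574916-75656722 (plus strand), encodes the receptor tyrosine kinase needed for the survival of melanocytes and is also the marker receptor of mast cells. It varied least among WT mice, at 42.2, 46.0, 60.2 and 51.6 CPM, and *Opa1*+/- mice had 45.6, 47.1, 46.1 and 56.3 CPM. All *Opa1*+/- values lay within the range of the WT mice, and those of mice other than Het_491 were close together. The log2 fold change was -0.03 (SE 0.114, 95% interval -0.29 to 0.22, edgeR adjusted p = 0.963). The summed level of 8 mast cell genes was from 9.86 to 21.7 CPM in WT and from 12.7 to 25.1 CPM in *Opa1*+/- mice. *Tpsab1*, *Fcer1a* and *Ms4a2* were under a mean of 0.5 CPM, while *Hdc* (9.23 and 8.87 CPM in WT and *Opa1*+/- mice), *Mcpt4* (2.44 and 3.16), *Tpsb2* (1.82 and 2.17), *Cma1* (1.75 and 2.01) and *Cpa3* (1.59 and 1.84) were detected, and the part of mast cells in the *Kit* values was not tested.

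*Ednrb*, on chr14:103814625-103844402 (minus strand), encodes the endothelin receptor of melanoblasts, which glia and vessels also express. It was at 63.6, 67.7, 46.2 and 70.2 CPM in WT mice and at 61.3, 60.4, 52.0 and 58.4 CPM in *Opa1*+/- mice. WT mouse 6, the highest in 7 of the other genes, was here the lowest of 8, and *Opa1*+/- mouse Het_484 was next. The log2 fold change was -0.09 (SE 0.122, 95% interval -0.37 to 0.18, edgeR adjusted p = 0.904). The glial genes *Fabp7* and *Cdh19*, picked out after their values were seen, were also lowest in WT mouse 6, at 52.5 and 20.8 CPM against 76.7 to 114 and 32.4 to 60.8 CPM in the other 7 mice. Their part in the *Ednrb* values was not tested.

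**Figure D2:**
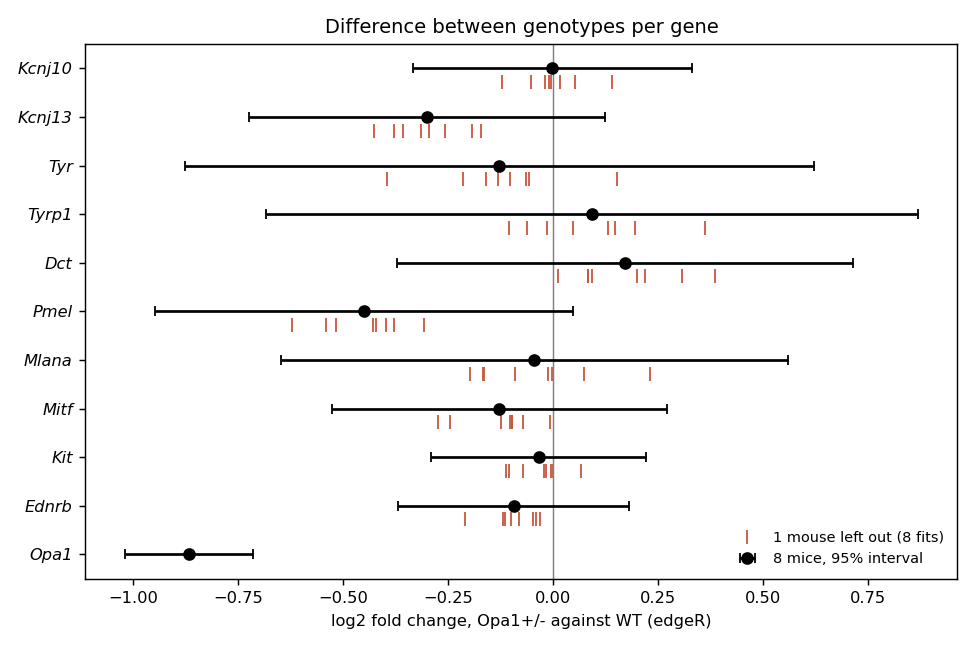
Log2 fold change of Opa1+/- against WT for the 10 genes and Opa1 from edgeR, with points and lines for the estimate and 95% interval over 8 mice and red ticks for the 8 fits that each leave out 1 mouse. The intervals of all 10 genes include 0, and that of Opa1, -1.02 to -0.72, does not.

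The precision thus differed between the genes. The 95% interval was narrowest for *Kit* and widest for *Tyrp1* and *Tyr*. A fall as large as that of *Opa1* lay outside the interval of 8 of the 10 genes, and inside that of *Tyr* and *Pmel*. WT mouse 6 moved the most directions: without it, *Kcnj10* (0.14), *Tyr* (0.15), *Mlana* (0.23) and *Kit* (0.07) had positive log2 fold changes and the median of the 10 was 0.03, and *Dct* moved from 0.17 to 0.39. *Tyrp1* became negative without Het_2 (-0.11), Het_491 (-0.06) or WT mouse 6 (-0.02), *Kcnj10* (0.05) and *Mlana* (0.07) became positive without Het_7, and *Kcnj10* (0.02) without Het_2. *Dct* became negative, at -0.11, only when Het_484 and Het_491 were both left out, among the alternatives planned. Without WT mouse 4, *Mitf* was at -0.28 and *Tyr* at -0.40. No single mouse left out brought any of the 10 under an adjusted p of 0.05.

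**Figure D3:**
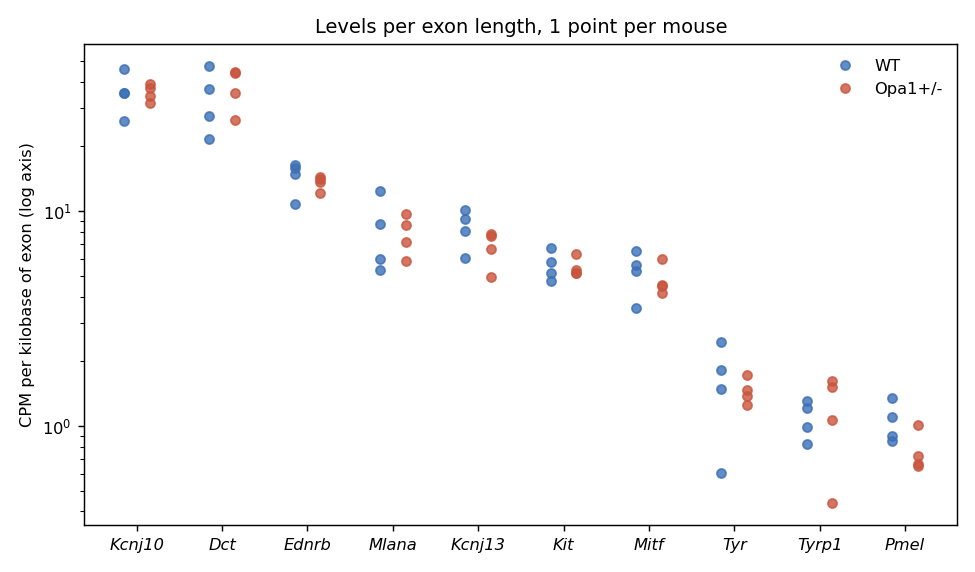
Level of each gene per kilobase of annotated exon, in CPM per kilobase on a log axis, with 1 point per mouse, WT in blue and Opa1+/- in red, ordered by the mean of 8 mice. Kcnj10 and Dct lie above all other genes in every mouse, and Tyr, Tyrp1 and Pmel lie below 3 in every mouse.

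Levels of different genes were compared per kilobase of the union of annotated exons. *Kcnj10* and *Dct* led, with means over 8 mice of 35.7 and 35.6 CPM per kilobase, and their ranges, 26.3 to 45.7 and 21.6 to 47.4, overlapped almost fully. *Ednrb* followed at 14.1 (10.8 to 16.5), below every value of the first pair. *Mlana* at 7.95, *Kcnj13* at 7.56, *Kit* at 5.54 and *Mitf* at 5.01 formed a middle group in which the range of each gene overlapped that of the next, and the range of *Mlana* also overlapped that of *Ednrb*. *Tyr* at 1.52, *Tyrp1* at 1.12 and *Pmel* at 0.904 were lowest, also with overlapping ranges, and the highest of these values, 2.45 for *Tyr* in WT mouse 6, was below the lowest of *Mitf*, 3.53. The melanin enzymes thus differed widely among themselves: *Dct* was measured at more than 10 times the level per kilobase of the other 2 enzymes. The order of the first pair depends on the length used. By the longest annotated transcript, 3459 bases in a single exon for *Dct*, *Dct* was at 60.6 and *Kcnj10* at 35.7 CPM per kilobase, and *Kit* at 9.42 passed *Mlana* at 9.28.

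Ratios of counts within a library do not depend on its depth. *Dct* had 89.8, 85.6, 113 and 114 reads per 100 reads of *Kcnj10* in WT mice and 112, 91.6, 130 and 123 in *Opa1*+/- mice, with overlapping groups. *Mlana* kept the steadiest ratio to *Dct*, from 3.85 to 4.69 reads per 100 in WT and from 3.47 to 3.96 in *Opa1*+/- mice. *Tyr* per 100 reads of *Dct* varied from 3.35 to 6.44 in WT and from 3.41 to 6.65 in *Opa1*+/- mice. *Tyrp1* varied most, from 0.834 to 2.91 in WT and from 0.472 to 2.18 in *Opa1*+/- mice.

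**Figure D4:**
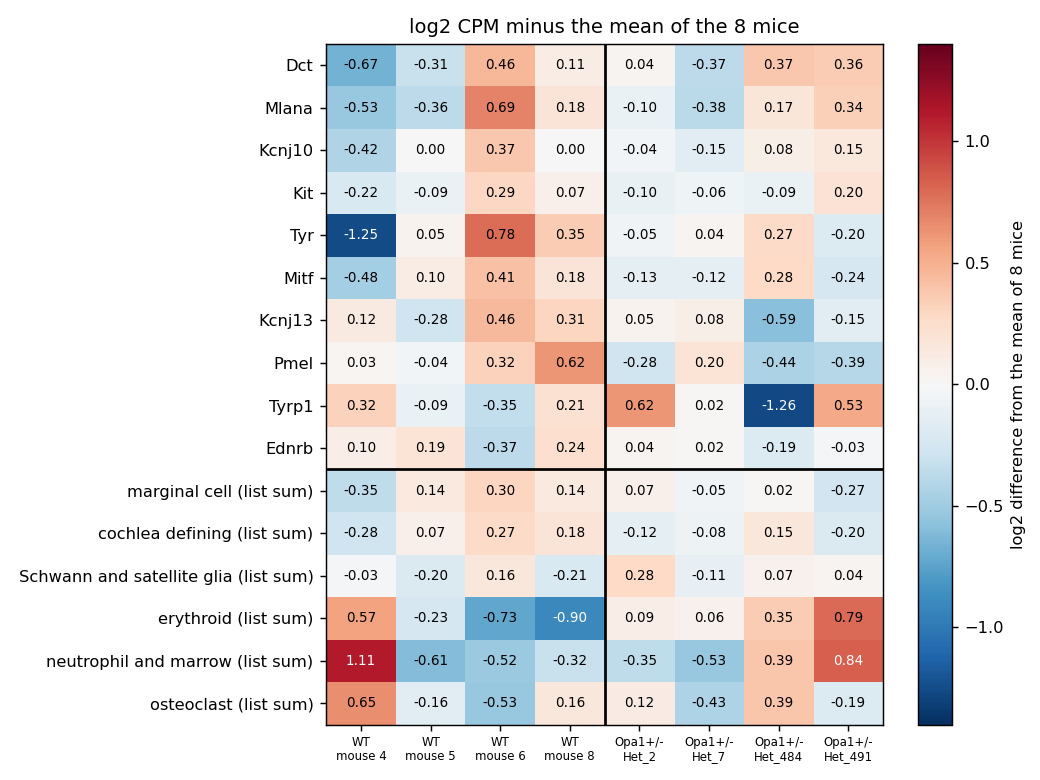
Difference of log2 CPM from the mean of the 8 mice for each of the 10 genes and for 6 summed gene lists, with WT mice in the left 4 columns and Opa1+/- mice in the right 4, blue for below and red for above the mean. Dct, Mlana, Kcnj10, Kit, Tyr and Mitf are lowest in WT mouse 4 and highest in WT mouse 6, and Ednrb is lowest in WT mouse 6.

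Across the 8 mice the 10 genes fell into unlike patterns, described here by the correlation of log2 CPM over the same 8 libraries, with both genotypes pooled. *Mlana* followed *Dct* most closely (Pearson r = 0.94, Spearman rho = 0.93, and r = 0.97 after each genotype was centred on its own mean), and ranked 22 among 19365 other genes. *Kcnj10* came next (r = 0.90, rho = 0.90, rank 88). *Kit* (r = 0.75, rho = 0.71), *Tyr* (r = 0.73, rho = 0.64) and *Mitf* (r = 0.66, rho = 0.69) followed less closely. Without WT mouse 4 and *Opa1*+/- mouse Het_7, the mice farthest from the median of *Dct*, r was 0.91 for *Mlana*, 0.71 for *Kcnj10*, 0.65 for *Kit*, 0.40 for *Tyr* and 0.24 for *Mitf*, so that the last 2 rest largely on those mice. *Tyrp1* (r = -0.34, rho = -0.40), *Pmel* (r = -0.17, rho = -0.14) and *Kcnj13* (r = -0.05, rho = 0) did not follow *Dct*, and *Ednrb* ran opposite to it (r = -0.62, rho = -0.64).

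The closest pair apart from *Dct* was *Tyr* with *Mitf* (r = 0.92, rho = 0.98). *Kcnj13* had *Pmel* as its nearest gene of the 10 (r = 0.78, rho = 0.88, and r = 0.70 without *Opa1*+/- mouse Het_484 and WT mouse 6). Outside the 10, the 5 genes most like *Dct* were *Aqp5* (r = 0.98, rho = 0.95), a water channel, *Gsta4* (r = 0.97, rho = 1), a glutathione transferase, *Hps4* (r = 0.97, rho = 0.95), whose product acts in the biogenesis of melanosomes, *Glmp* (r = 0.97, rho = 0.93), a lysosomal membrane protein, and *Gusb* (r = 0.96, rho = 0.95), lysosomal beta-glucuronidase. *Aqp5* was lowest in WT mouse 4, at 8.79 CPM, and highest in WT mouse 6, at 21.7 CPM, as *Dct* was. Those most like *Kcnj13* were *Il13ra2* (r = 0.99, rho = 0.98), *Slc38a4* (r = 0.99, rho = 1), *Mirg* (r = 0.97, rho = 0.93), *Hdac11* (r = 0.95, rho = 0.95) and *Rnf144b* (r = 0.95, rho = 0.93). These are the highest of 19365 correlations for each gene, over only 8 libraries, and are given as a description.

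Tissue content also differed between the libraries. WT mouse 4, lowest of 8 in *Kcnj10*, *Tyr*, *Dct*, *Mlana*, *Mitf* and *Kit*, also had the lowest sum of 10 genes of marginal cells, the epithelial cells of the stria that secrete potassium, at 1915 CPM against 2693 to 3017 in the other WT mice and 2026 to 2570 in *Opa1*+/- mice. Its sum of inner ear genes was 2943 CPM, against 3761 to 4310 and 3100 to 3974, and its sum of osteoclast genes was the highest, 173 CPM against 76.4 to 123 and 82.2 to 145. The 9 marginal cell genes tested correlated with *Dct* with a median r of 0.53, from 0.22 to 0.87. Without WT mouse 4 and Het_7 the median r was 0.02, from -0.35 to 0.69, so that this relation rests on those mice. Het_491 had the next lowest marginal cell sum, 2026 CPM, and the next highest neutrophil and marrow sum, 1183 CPM, with an osteoclast sum of 96.9 CPM. Its erythroid sum, 25054 CPM, was the highest of 8, above the 21454 CPM of WT mouse 4. In that mouse *Tyr* and *Mitf* were below the mean of the 8 mice, and *Dct*, *Mlana*, *Kcnj10* and *Kit* were above it. The part of tissue content in the values of the 10 genes was not tested.

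The genes that act around the 10 were examined by fixed lists. Of 10 regulators and ligands of the melanocyte lineage 9 were tested, *Mc1r* being under 0.5 CPM, and 4 had positive and 5 negative log2 fold changes, with a median of -0.001, 0 under an unadjusted p of 0.05 and 0 under an adjusted p of 0.05 by edgeR's quasi-likelihood test. *Sox10*, a transcription factor of melanocytes and glia that acts upstream of *Mitf*, was at 80.4, 97.4, 107 and 82.7 CPM in WT mice and at 109, 94.4, 111 and 102 CPM in *Opa1*+/- mice. Its groups overlapped through WT mice 5 and 6 (log2 fold change 0.18, SE 0.0992, edgeR adjusted p = 0.763). *Kitl*, the ligand of KIT, averaged 39.6 ± 1.59 CPM over WT mice and 36.1 ± 3.50 CPM over *Opa1*+/- mice (SD, n = 4 each, log2 fold change -0.13, SE 0.0743, edgeR adjusted p = 0.765). *Edn3*, the ligand of EDNRB, had 3.37 ± 0.413 and 3.20 ± 0.670 CPM (log2 fold change -0.07, SE 0.182, edgeR adjusted p = 0.956).

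Of 24 genes of melanosome formation and transport 22 were tested, *Oca2* and *Gpr143* being under 0.5 CPM. Of these 10 were positive and 12 negative with a median log2 fold change of -0.02, and 0 passed at either an unadjusted or an adjusted p of 0.05 by edgeR. The transporter gene *Slc45a2*, named after its values were seen, showed the spread of *Tyr* among WT mice, at 6.05, 9.57, 17.2 and 12.8 CPM, against 10.6, 8.72, 12.1 and 11.6 CPM in *Opa1*+/- mice. The list was not uniform in this, as 2 more genes named after their values were seen show. *Mlph* was at 4.11 CPM in WT mouse 4 and 10.3 CPM in WT mouse 6. *Rab27a* went the other way, at 16.6 CPM in WT mouse 4 and 12.3 CPM in WT mouse 6.

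Of 13 other inward rectifier genes 10 were tested, 3 positive and 7 negative, with a median of -0.06 and 0 called. *Kcnj15* alone had an unadjusted p under 0.05 (0.0489), at 7.88, 7.18, 11.7 and 8.18 CPM in WT and 6.15, 5.46, 5.07 and 8.62 CPM in *Opa1*+/- mice (log2 fold change -0.47, SE 0.206, edgeR adjusted p = 0.740), and its groups overlapped through *Opa1*+/- mouse Het_491. Of the marginal cell genes 9 were tested, 8 negative and 1 positive, with a median of -0.18 and 0 called or under an unadjusted p of 0.05. Leaving out WT mouse 6 moved this median to -0.02, and leaving out WT mouse 4 moved it to -0.33.

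Other cells of the sample that express some of the 10 genes were followed by their own markers. Of 11 genes of Schwann and satellite glia, which share *Sox10*, *Ednrb* and *Kcnj10*, all 11 were tested and positive, with a median of 0.18, and 0 were called. *Egr2*, a regulator of myelin genes, had an unadjusted p of 0.00285 and groups that did not overlap, 21.5 ± 1.18 against 27.2 ± 2.91 CPM (log2 fold change 0.34, SE 0.0859, edgeR adjusted p = 0.722). The 8 genes of choroid plexus and retinal pigment epithelium, tissues in which *Kcnj13* is known, summed to 58.8 to 135 CPM in WT and 68.5 to 85.0 CPM in *Opa1*+/- mice, and 0 of 6 tested genes were called. *Folr1* and *Rpe65* were under a mean of 0.5 CPM, while *Kl* (25.7 and 21.4 CPM in WT and *Opa1*+/- mice), *Clic6* (21.7 and 18.8), *Rlbp1* (13.4 and 13.2), *Best1* (3.46 and 3.53) and *Otx2* (2.37 and 2.59) were detected. *Ttr* was at 69.5 CPM in WT mouse 5, while the remaining WT mice had 9.08 to 19.4 CPM, beside 9.77 to 18.4 CPM in *Opa1*+/- mice. Keratinocyte genes, a sign of skin in the sample, summed to 7.08 to 23.6 CPM in WT and 8.40 to 13.5 CPM in *Opa1*+/- mice. Among these *Krt14* was at 7.57 ± 4.39 and 3.31 ± 1.18 CPM (log2 fold change -1.21, SE 0.508, unadjusted p = 0.0404, edgeR adjusted p = 0.728). The *Krt14* groups overlapped, and WT mouse 4, at 1.48 CPM, was below the 2.19 to 4.85 CPM of *Opa1*+/- mice. None of the 6 osteoclast, 5 mast cell, 9 erythroid and 10 neutrophil genes tested was called or had an unadjusted p under 0.05 by edgeR's quasi-likelihood test. All 9 erythroid genes were positive, with a median log2 fold change of 0.56. The part of these cells in the values of the 10 genes was not tested.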

How the data were processed

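RNA seq of cochleae from 4 WT and 4 Opa1+/- mice was used. The authors prepared CORALL libraries with molecular identifiers, sequenced paired reads of 80 nucleotides, mapped them to GRCm38 with STAR and deposited raw counts, 1 table per mouse with whole numbers per gene symbol. The counting program and the use of strand are not given in the sources used here. The 15 entries without a symbol (0.112% to 0.124% of counts) were left out, and genes with a mean normalized count over 10 were tested, 19366 in all, including all 10 genes described.

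CPM were computed from library sizes over 47628 named entries and TMM factors. Genotypes were compared by the quasi-likelihood test of edgeR 4.0.16, and p-values were adjusted after Benjamini and Hochberg. Log2 CPM used a prior count of 2. DESeq2 1.42.0, limma 3.58.1 voom with quality weights, other scalings and filters, and leaving out mice were alternatives. Scripts were tested on simulated data. Exon lengths came from GENCODE vM21, proteins from its longest open reading frames (aligned with Biopython 1.88), promoters from RefSeq. The work was done in R 4.3.3 and Python 3.11.15, and figures were drawn with matplotlib 3.10.9.

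The 10 genes and all lists were chosen with earlier results of these data known. Named were the 10 genes, *Opa1*, *Sox10*, *Kitl*, *Edn3*, up to 3 genes per list with an unadjusted p under 0.05, and the 5 genes most correlated with *Dct* and with *Kcnj13*; other genes are said to be named after their values were seen or serve as cell type markers, overlap partners or low genes.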

Additional observations from a re-analysis of the deposited data

Results flagged for a closer look

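In 52 sets of 4 mice, 3 had 1 mouse far from the other 3 by Dixon's 95% criterion, which chance gives in about 1 of 20 sets. *Kit* in *Opa1*+/- mouse Het_491 was at 56.3 CPM, against 45.6 to 47.1 CPM in the other *Opa1*+/- mice. The sum of *Mitf*, *Kit* and *Ednrb* in the same mouse was 140.5 CPM, against 134.8 to 135.5 CPM, a difference of a few percent. In WT mouse 4 the summed neutrophil and marrow genes reached 1429 CPM, while the remaining WT mice had 435 to 532 CPM.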

How the results depend on the processing

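Under all 17 alternatives 0 of the 10 genes had an adjusted p under 0.05, and the lowest adjusted p of any of them was 0.487 (*Pmel*). The median log2 fold change of the 10 genes lay between -0.26 and 0.03, and with 1 mouse left out between -0.16 and 0.03. The lowest was found without WT mouse 4 and both *Opa1*+/- mice with 3-digit numbers, an alternative added after seeing the data, in which *Dct* was at -0.27, *Mlana* at -0.47 and *Tyr* at -0.43. An unadjusted p under 0.05 was found for 2 of the 10 without WT mouse 5 (5.44% of all genes in that fit), for 1 without WT mouse 6 (7.82%), for 1 without *Opa1*+/- mouse Het_7 (7.05%) and for 1 in that added alternative (5.34%). *Kcnj13*, *Pmel*, *Mitf* and *Ednrb* were negative under all 17, and limma voom turned the direction of *Kcnj10*, *Tyr*, *Tyrp1* and *Mlana*. The length used moved *Dct* from 35.6 to 60.6 CPM per kilobase, and the motif was found in 4 genes also when the whole windows of the promoter table, which run past the start, were searched. Over all genes tested, 5 were called in the fit reported, 25 by DESeq2, 10 by limma voom and 12 without a filter, and from 0 to 9 with 1 mouse left out; *Opa1* was called in 7 of those 8 fits, and had an adjusted p of 0.0704 (edgeR) without Het_2. Without both *Opa1*+/- mice with 3-digit numbers, and in the added alternative, 0 genes were called and *Opa1* had adjusted p-values of 0.260 and 0.656 (edgeR), so that in these 3 fits without a call the 0 of 10 carries no information. The controls were littermates, but the labels used here do not name the litter of each mouse. The genotypes were therefore compared unpaired, and any effect of litter was not modelled. *Pmel* and *Tyrp1*, with 20 to 77 reads per mouse, are the genes whose precision depth limits most.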
